A study of Mus musculus with 3 samples.

Results

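The small leucine-rich proteoglycans are a family of secreted matrix proteins, and 6 genes of it were listed here: Fmod (fibromodulin), Ogn (osteoglycin), Dcn (decorin), Lum (lumican), Bgn (biglycan) and Prelp (prolargin). Members were found by current or older symbol among the gene names of the array. The rule matched 6 of the 20371 probes, which stand for 5 of the 6 genes: Prelp had 2 probes and Fmod, Ogn, Dcn and Bgn had 1 each. No probe was matched for Lum, which is not analysed here. RNA was measured on 2-colour Agilent mouse arrays in 3 biological replicates, here called cultures, of mouse ovarian surface epithelium (OSE), the cell layer that covers the ovary. The mesenchymal group is OSE grown for 1 week in 15% fetal bovine serum (FBS), and the epithelial group is OSE of the same 3 cultures in 2.5% FBS. Both RNAs were amplified before labelling. Both groups came from ovaries of virgin C57/Bl6 females that had been superovulated with PMSG and hCG and mated before collection, and all cells were harvested at 80% confluence. How many mice went into a culture is not given in the sources used here. The mesenchymal state was induced by serum, so effects of serum and of phenotype cannot be told apart.

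Proteins of this family have a curved core of leucine-rich repeats that binds collagen fibrils, limits their thickness and spaces them. Decorin and biglycan carry chondroitin or dermatan sulfate chains. Fibromodulin and lumican carry keratan sulfate, and osteoglycin can. The cores also bind growth factors, of which transforming growth factor beta is the best known, and they are typical products of fibroblasts and other mesenchymal cells.

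Each culture was measured on 2 arrays with the dyes exchanged, so there were 6 arrays. A value given as a log2 ratio sets mesenchymal over epithelial RNA, the 2 arrays of a culture were averaged, and means are given with the SD over cultures (n = 3 unless stated). A ratio was called where its adjusted p, from limma with Benjamini-Hochberg adjustment over 17582 features, was under 0.05. Dye mattered on these arrays: the dye effect passed the same test for 57.1% of features, and arrays of opposite dye orientation, once turned to mesenchymal over epithelial, correlated across genes at -0.50 to -0.10. One array, that of culture 3 with mesenchymal RNA in Cy3, stood apart, with 1639 outlier-flagged probes against 61 to 467 on the others. All 10 measured markers of ovarian surface epithelium and mesothelium were flagged above background for both RNAs on all 6 arrays. That flag is a weak one, since 18.5% to 81.5% of negative control spots also carried it.

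In mesenchymal cells, 2 of the 4 family genes with a usable ratio fell about 4-fold or more and the other two were not called. Fibromodulin RNA was 4.75-fold lower and osteoglycin RNA 4.15-fold lower. Decorin and prolargin had log2 ratios of -0.34 ± 0.27 and -0.019 ± 0.19. Biglycan was too bright to be measured in either RNA. Of all features tested, unnamed ones included, 5.92% were called lower and 5.96% higher, and 1.09% were called lower by at least 2-fold. The share of the family that fell lies above this background, over 4 genes. Members were chosen with earlier results of these data known, so this comparison is a description and not a test. These are bulk cultures, in which fewer cells that make a transcript and less of it per cell cannot be told apart.

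**Figure D1:**
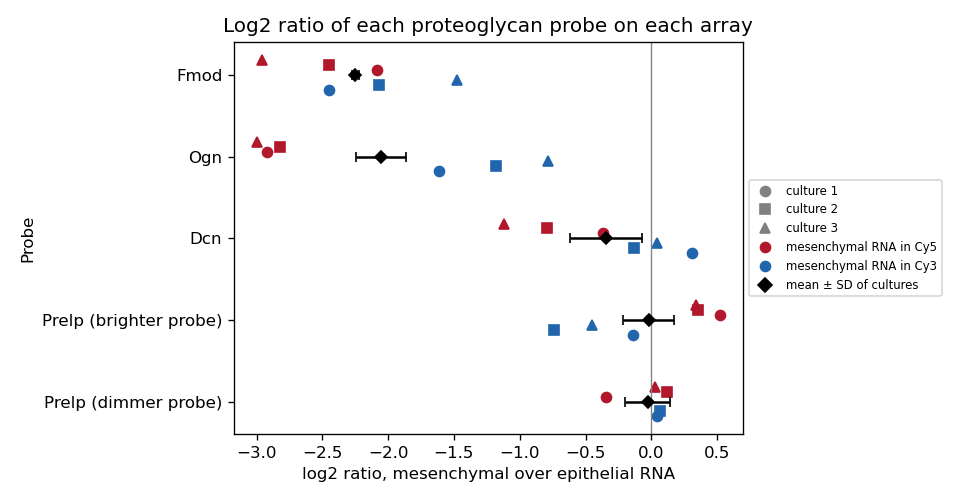
Log2 ratio of mesenchymal over epithelial RNA (x axis) for each family probe (y axis). Coloured symbols are the 6 arrays, by culture and by the dye of the mesenchymal RNA, and black diamonds with bars are the mean ± SD over cultures; Fmod and Ogn lie below 0 on all 6 arrays, and Dcn and Prelp lie on both sides of 0 (1 dimmer Prelp spot was outlier-flagged and is not drawn).

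Fmod encodes fibromodulin, which binds type I collagen and directs its crosslinking. Its log2 ratio was -2.27 in culture 1, -2.26 in culture 2 and -2.22 in culture 3. The mean was -2.25 ± 0.03 (95% confidence interval -2.41 to -2.09, adjusted p = 8.33e-05), which placed it as the 13th lowest of the 17582 features. The 3 cultures were almost alike, but the arrays behind them were not. With mesenchymal RNA in Cy5 the log2 ratio was -2.09, -2.45 and -2.96 in cultures 1, 2 and 3, and with mesenchymal RNA in Cy3 it was -2.45, -2.07 and -1.48. All 6 arrays were below 0, so the small SD reflects averages and not equal arrays.

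The 2 arrays of culture 3 differed most for Fmod. On the array of culture 3 with mesenchymal RNA in Cy3, the spot's mean signal was 275 in mesenchymal RNA and 392 in epithelial RNA, in scanner units. On the other 5 arrays it was 1402 to 3309 in mesenchymal RNA and 7082 to 18701 in epithelial RNA. The mean brightness of the spot over both dyes thus dropped by 4.40 on the log2 scale relative to its average on the other arrays, whereas the median probe was 0.67 higher, and 17 of 20371 probes, Fmod included, dropped that far. The spot was not outlier-flagged. A fit over the other 5 arrays with a dye term gave a log2 ratio of -2.42 (adjusted p = 0.000262), and without culture 3 it was -2.26, so the call did not rest on that spot.

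**Figure D2:**
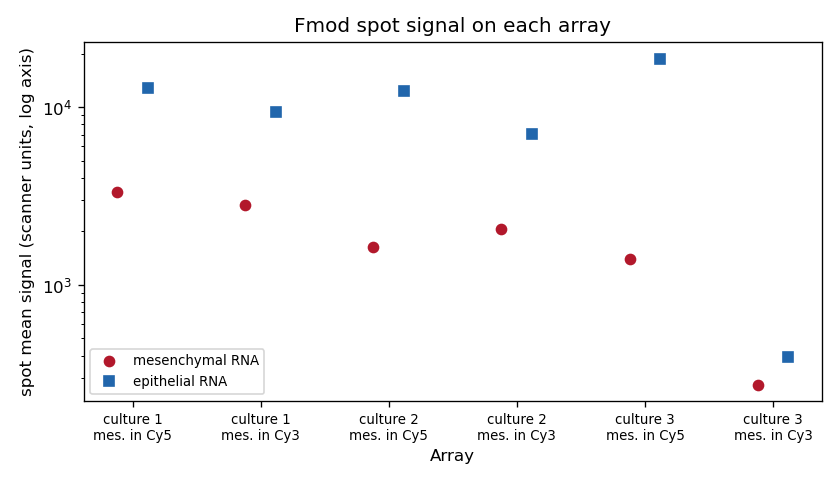
Mean scanner signal of the Fmod spot (y axis, log scale) on each of the 6 arrays (x axis), with mesenchymal RNA as circles and epithelial RNA as squares. Mesenchymal signal is below epithelial signal on every array, and on the array of culture 3 with mesenchymal RNA in Cy3 both fall to 275 and 392.

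Ogn encodes osteoglycin, also called mimecan, a matrix protein first described in bone. Its log2 ratio was -2.27 in culture 1, -2.0 in culture 2 and -1.89 in culture 3, with a mean of -2.05 ± 0.19 (95% confidence interval -2.28 to -1.83, adjusted p = 0.000178). It was the 25th lowest feature. The normalised log2 intensity, averaged over both dyes, was 9.90, 9.35 and 9.60 in mesenchymal RNA of cultures 1, 2 and 3, against 12.17, 11.36 and 11.50 in epithelial RNA. The 2 groups did not overlap. The size of the Ogn change depended on the dye: it was -2.92, -2.82 and -3.00 with mesenchymal RNA in Cy5, and -1.61, -1.18 and -0.79 with mesenchymal RNA in Cy3. The dye effect of the probe was -0.86 (adjusted p = 8.35e-05), against -0.25 for Fmod (adjusted p = 0.171), and averaging both orientations cancels it.

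For Fmod the normalised log2 intensity was 11.69, 10.77 and 8.71 in mesenchymal RNA of cultures 1, 2 and 3, against 13.96, 13.03 and 10.93 in epithelial RNA. The groups overlapped, because both RNAs of culture 3 carry the dim spot. A fit that ignored which RNAs shared a culture lost the Fmod call, with a log2 ratio of -2.25 at an adjusted p of 0.603, while Ogn kept its call (adjusted p = 0.0162). Within each culture mesenchymal RNA was lower than epithelial RNA for both genes.

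**Figure D3:**
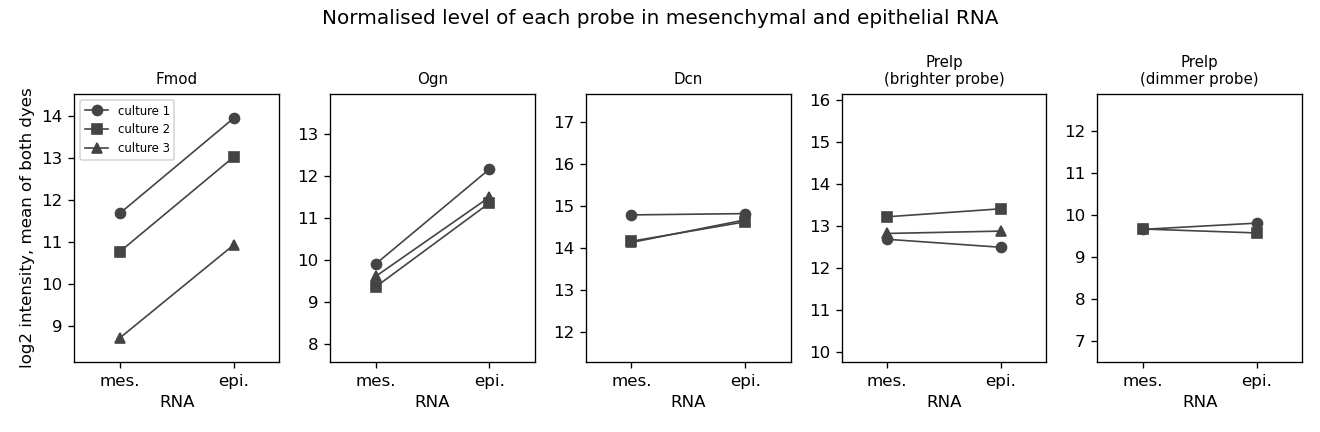
Normalised log2 intensity, averaged over both dyes (y axis), in mesenchymal and epithelial RNA (x axis) for each family probe, with 1 line per culture. Every panel spans the same number of log2 units but starts at its own level, since intensities of different probes cannot be compared; the Fmod and Ogn lines climb steeply towards epithelial RNA in all 3 cultures, and the Dcn and Prelp lines are nearly flat (culture 3 is not drawn for the dimmer Prelp probe).

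The letters around the starts of both genes that fell are shown, with the longest run they share marked. Each window runs from base -230 to base 20 around the start of the gene, 5′ to 3′ on the gene's strand, from RefSeq on GRCm38.p6. Fmod lies on the plus strand of chromosome 1 (134037254 to 134048280) and its window is chr1:134037024-134037273. Ogn lies on the plus strand of chromosome 13 (49608015 to 49624501) and its window is chr13:49607785-49608034. Capitals mark the longest run of letters that both have in common.
Fmod: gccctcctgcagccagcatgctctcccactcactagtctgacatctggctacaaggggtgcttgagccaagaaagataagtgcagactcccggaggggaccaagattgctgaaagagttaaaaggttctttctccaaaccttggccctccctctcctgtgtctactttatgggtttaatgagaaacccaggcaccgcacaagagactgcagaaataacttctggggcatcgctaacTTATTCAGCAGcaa
Ogn: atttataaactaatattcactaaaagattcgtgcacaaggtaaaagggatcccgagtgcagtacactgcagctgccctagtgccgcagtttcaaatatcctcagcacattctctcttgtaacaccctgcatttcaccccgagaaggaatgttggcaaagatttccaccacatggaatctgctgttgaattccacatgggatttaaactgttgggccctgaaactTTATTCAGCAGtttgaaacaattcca

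The shared run TTATTCAGCAG has 11 bases and begins at base 7 after the start of Fmod, with the start as base 1, and at base -6 of Ogn. On either strand it was found in 10 of 32851 RefSeq promoter sequences, or 0.0304%, each of 300 bases with 250 before and 50 from the start, those of Fmod and Ogn included. The longest runs shared by other pairs of Fmod, Ogn, Prelp and Bgn had 8 to 12 bases and lay in 0.167% to 1.04% of these sequences. Any pair has a longest run, and TTATTCAGCAG was picked from this pair. Its low share therefore does not show a link between Fmod and Ogn. Several short motifs were also searched, on both strands, in all 250 bases before each start, a stretch that begins 20 bases before the printed ones and ends at the start, and shares are of the 32851 such stretches. CAGGTG, the E2 box recognised by Snail and Zeb factors, was in neither the Fmod nor the Ogn stretch (17.22% of all stretches hold it). CAGAC, a Smad-binding sequence, was in the Fmod stretch at bases -148 (plus strand of the gene) and -195 (other strand), and not in that of Ogn (42.19% of stretches). GGAATG, a TEAD-binding sequence, was at base -86 of Ogn and not in the Fmod stretch (12.64% of stretches). TATAAA was in the Ogn stretch, at base -227 and, overlapping it on the other strand, at base -229, and not in that of Fmod (12.37%). TGANTCA (AP-1, 6.75%) and the CArG box (1.47%) were in neither, and CANNTG was in both (66.22%). Such matches describe letters, not sites in use.

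Dcn encodes decorin, a collagen-binding proteoglycan that also holds transforming growth factor beta. Its log2 ratio was -0.031 in culture 1, -0.46 in culture 2 and -0.54 in culture 3. The mean of -0.34 ± 0.27 did not pass the test (95% confidence interval -0.62 to -0.072, unadjusted p = 0.0213 and adjusted p = 0.119 from limma). Of the 6 arrays, 4 lay below 0, at -1.12, -0.79, -0.37 and -0.14, and the arrays of cultures 1 and 3 with mesenchymal RNA in Cy3 lay above it, at 0.31 and 0.043. The normalised log2 intensity was 14.79, 14.16 and 14.13 in mesenchymal RNA, against 14.82, 14.62 and 14.67 in epithelial RNA, so that the groups overlapped through culture 1. Without culture 1 the log2 ratio was -0.50 and was called (adjusted p = 8.12e-09), in a fit that called 5154 features in place of 2088, and with median centring in place of loess it was also called, at -0.39 (adjusted p = 0.0345). The probe was not saturated on any array.

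Prelp encodes prolargin, which anchors basement membranes to the collagen beneath them. The brighter of its 2 probes had log2 ratios of 0.19, -0.19 and -0.056 in cultures 1, 2 and 3, with a mean of -0.019 ± 0.19 (adjusted p = 0.941). The 95% confidence interval, -0.24 to 0.21, excludes a change as large as that of Fmod or Ogn. The dimmer probe gave -0.15 and 0.093 in cultures 1 and 2, a mean of -0.028 (n = 2), and its culture 3 value was left out for an outlier flag. Both probes thus centred close to 0. The brighter probe was above 0 on the 3 arrays with mesenchymal RNA in Cy5 and below 0 on the 3 with it in Cy3, with a dye effect of 0.42 (adjusted p = 0.000913), so a single dye orientation would give it a direction that the average does not.

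Bgn encodes biglycan, the close relative of decorin on chromosome X. Its spot was saturated in both RNAs on all 6 arrays, with mean signals of 65257 to 65287 scanner units in each. No ratio or test is therefore given for Bgn. The spot was at the scanner's ceiling in both states, and a change of any size between them could be hidden by it.

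Family genes sit in clusters in the mouse genome, and the measured pair of one cluster moved unequally. Prelp lies 107.2 kb from Fmod on chromosome 1, on the minus strand. The log2 ratio was -2.25 ± 0.03 for Fmod and -0.019 ± 0.19 for Prelp. Other genes were taken by position, as the 2 nearest with a tested probe on each side. On the other side of Fmod, the anti-proliferative gene Btg2, 26.6 kb away, fell by 0.40 ± 0.08 (adjusted p = 0.0188), and the adenosine receptor gene Adora1 was at 0.078 ± 0.007 (adjusted p = 0.600). Around Ogn, the cytosolic isoleucyl-tRNA synthetase gene Iars fell by 0.75 ± 0.21 (adjusted p = 0.00538), while Nol8, 28.6 kb away, was at -0.11 ± 0.37, Bicd2 at -0.073 ± 0.15 and Ninj1 at -0.13 ± 0.34. Around Dcn, the nearest tested gene was the anti-proliferative gene Btg1, 856.7 kb away, which rose by 0.92 ± 0.37 (adjusted p = 0.00978). No neighbour named here matched the size of the Fmod or Ogn change.

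By the root mean square difference of the 6 array log2 ratios, over 7755 named genes measured on all arrays, the genes most like Fmod were Tgfb2, Megf6 and Cth. Tgfb2, which encodes a ligand of the transforming growth factor beta family, differed from Fmod by 0.32 and had a log2 ratio of -2.14 ± 0.11. Megf6 differed by 0.36 and Cth, an enzyme of cysteine synthesis, by 0.41. The genes most like Ogn were Nid2, which encodes a basement membrane protein (0.21), the mesenchymal cadherin gene Cdh11 (0.27) and the stress-induced gene Trib3 (0.34). Arrays share dye effects and cultures, so this likeness is a description.

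The collagens that these proteoglycans bind went partly the same way. Of 8 measured genes of fibrillar, type VI and related collagens, 3 were lower and 0 higher, with a median log2 ratio of -0.12, against -0.0030 over all features. As a background, 5.92% of all features were called lower and 5.96% higher. Col1a2, a chain of type I collagen, was at -3.18 ± 0.12 (adjusted p = 8.22e-05). Epithelial RNA saturated its spot on 4 of 6 arrays and mesenchymal RNA on 0, so only the epithelial signal was capped. A dimmer Col1a2 probe gave -0.021, and Col1a2 was read from that probe, without a call, when saturated spots were left out. Col5a2 fell by 1.63 ± 0.22 with a dye effect of -1.46 (-0.17 and not called with epithelial RNA in Cy5 alone), and Col6a1 fell by 1.16 ± 0.19. Col6a2 and Col6a3, partners of Col6a1 in type VI collagen, were at -0.12 and -0.022, and Col14a1 was at 0.027, none of them called. Col5a1 was at 0.31 (n = 2 cultures), with -0.54 to -0.11 on dimmer probes, and was not called either.

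**Figure D4:**
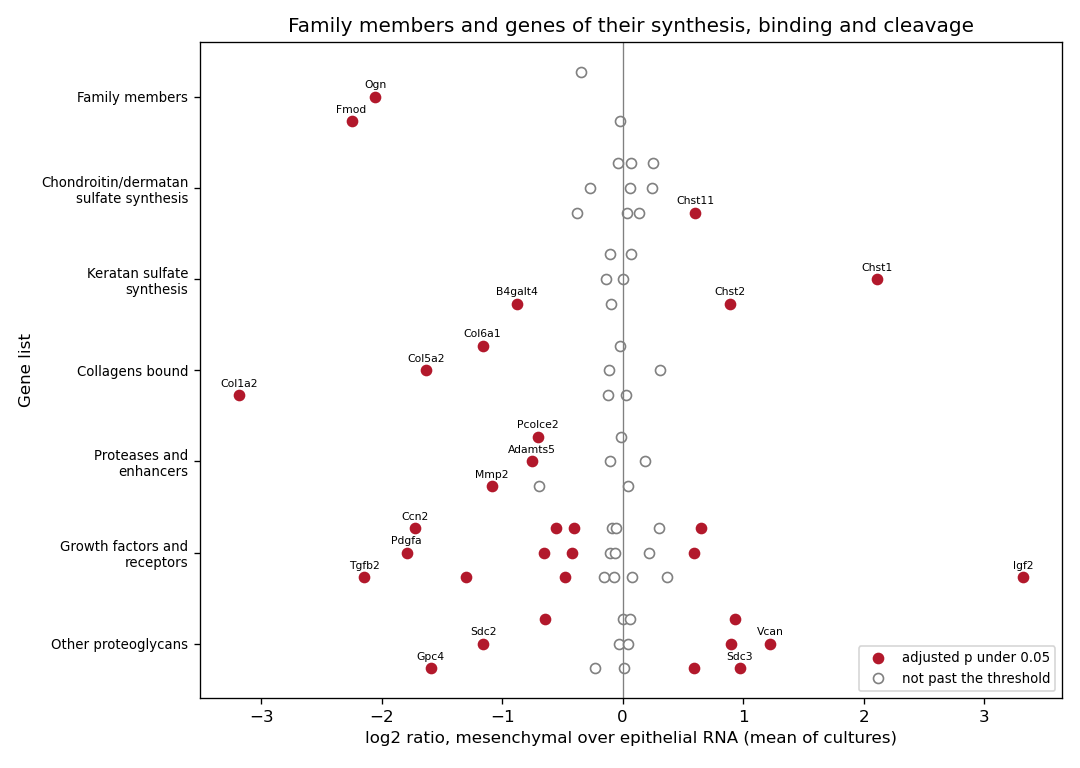
Log2 ratio of mesenchymal over epithelial RNA, as the mean of cultures (x axis), for the family members and for genes of their synthesis, partners and cleavage (y axis, by list; offsets within a list only keep points apart). Filled points passed the test and open points did not; the 2 family genes that fell lie near -2, and calls for keratan sulfate and growth factor genes lie on both sides of 0.

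Calls among genes that build the sugar chains are set beside the 11.9% of all features called in either direction. Of 10 measured genes for linkage and chondroitin or dermatan sulfate synthesis, 1 was higher, 0 lower and 9 not called, with a median of 0.066. The one called was Chst11, a chondroitin sulfotransferase gene, which rose by 0.60 ± 0.21 (adjusted p = 0.0116). That call was lost without culture 3, and another, dimmer Chst11 probe gave -0.21. The brightest other members, Chst14 and Chst15, were at 0.037 and 0.070. Dse, whose enzyme turns chondroitin into dermatan sulfate, was at -0.38 (adjusted p = 0.0843). Of 8 measured keratan sulfate genes, 2 were higher and 1 lower. Chst1, the keratan sulfate galactose sulfotransferase gene, rose by 2.11 ± 0.38 (adjusted p = 0.000586), with 2.35, 2.32 and 1.68 in cultures 1, 2 and 3 and all 6 arrays above 0. Chst2 rose by 0.89 ± 0.16 and the galactosyltransferase gene B4galt4 fell by 0.88 ± 0.07 (adjusted p = 0.00196 and 0.00103).

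Proteases and related genes that process these cores or their collagens had 3 of 8 members lower, 0 higher and a median of -0.40. Shares over all features were 5.92% lower and 5.96% higher. Mmp2, a gelatinase gene, fell by 1.08 ± 0.09 (n = 2, adjusted p = 0.00284). Pcolce2, an enhancer of procollagen processing, fell by 0.71 ± 0.25 (adjusted p = 0.00989). Adamts5, the gene of an aggrecanase, was at -0.75 ± 0.51 (adjusted p = 0.0490), with a dye effect of -1.45. That call was lost without culture 3, with the stricter filter on dim probes, with a trended robust spread and on unpaired channels (adjusted p = 0.0886, 0.050007, 0.0567 and 0.389), and with epithelial RNA in Cy5 alone the log2 ratio was 0.70. Bmp1, whose protease trims the biglycan precursor, was at 0.19 (n = 2 cultures) and not called.

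Among the growth factors and receptors that family cores can bind, 9 of 22 were lower, 3 higher and 10 not called, with a median of -0.096. Over all features, 5.92% were called lower and 5.96% higher. Tgfb2 fell by 2.14 ± 0.11 (adjusted p = 9.59e-05), and its dimmer probe gave -1.51. Tgfb1 rose by 0.65 (adjusted p = 0.00509) and Tgfb3 was at 0.37 (adjusted p = 0.0788). The receptor genes differed as well: Tgfbr2 fell by 1.30 (adjusted p = 0.000343) on its brighter probe, with 0.072 on a dimmer one, and Tgfbr3, the gene of betaglycan, rose by 0.59 (adjusted p = 0.0126). Pdgfa, a platelet-derived growth factor gene, fell by 1.79 ± 0.04. Igf2 was at 3.32 ± 0.22 and Ccn2 at -1.72 ± 0.24 on their brighter probes, while dimmer probes gave -0.061 and 0.10. Epithelial RNA saturated the brighter Ccn2 spot on 4 arrays and mesenchymal RNA on 0. With saturated spots left out Ccn2 was read from the dimmer probe, so the 0.10 found there is the same value.

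Other proteoglycans changed in both directions. Of 14 measured, 5 were higher, 3 lower and 6 not called, with a median of 0.029. Tgfbr3 is among the 5 and was also counted with the growth factors and receptors. The background over all features was 5.96% called higher and 5.92% lower. Vcan, the gene of the large chondroitin sulfate proteoglycan versican, rose by 1.23 ± 0.20 (adjusted p = 0.000916), and its dimmer probe gave 0.53. Among the cell surface heparan sulfate carriers, Sdc3 rose by 0.97 ± 0.40 and Sdc1 rose by 0.94 (n = 2 cultures; 0.16 on a dimmer probe). Sdc2 fell by 1.16 ± 0.19 and Gpc4 fell by 1.59 ± 0.04. Hspg2, the gene of perlecan, a partner of prolargin, was at -0.23 (adjusted p = 0.105).

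Markers of the cell types that such a culture could hold were measured beside these results. For comparison, 5.92% of all features were called lower and 5.96% higher. A single call in a marker list this short cannot be told from these shares. Of 10 measured markers of ovarian surface epithelium and mesothelium, 7 were lower and 0 higher in mesenchymal cells, with mean log2 intensities of 13.05 to 13.37 in mesenchymal RNA, against 14.09 to 14.38 in epithelial RNA of the 3 cultures. Epithelial RNA saturated the spots of 3 of these 7, namely Krt7 on 6 arrays, Krt8 on 3 and Krt19 on 2, and mesenchymal RNA saturated that of Krt8 on 3, so these intensities are capped. With saturated spots left out Krt7 was read from a dimmer probe, at -0.37 (adjusted p = 0.0784). The mesothelial genes Gpm6a and Msln fell by 2.98 ± 0.22 and fell by 2.07 ± 0.27. The 3 markers of this list that were not called were Krt18 at -0.46, Gata4 at -0.0048 and Cdh1 at 0.23. Cdh1 was above 0 on all 6 arrays (adjusted p = 0.0914 from limma). For ovarian stroma and theca, 1 of 11 was lower and 1 higher, with means of 9.95 to 10.02 and 10.02 to 10.12 in mesenchymal and epithelial RNA. The stromal receptor gene Pdgfra fell by 0.84 ± 0.27 and the Hedgehog receptor gene Ptch1 was at 0.71 ± 0.30 (adjusted p = 0.0149). The Ptch1 call was lost without culture 3 (0.60, adjusted p = 0.0941), and with epithelial RNA in Cy3 alone it was at -0.12. With epithelial RNA in Cy5 alone Pdgfra was at 0.11. Granulosa markers had 1 of 8 lower, smooth muscle and pericyte markers 1 of 7 lower (Inhbb at -0.64 and Acta2 at -1.19, with the Acta2 spot saturated by epithelial RNA on 5 of 6 arrays and without a value when saturated spots were left out), and 0 of 4 endothelial and 0 of 4 leukocyte markers were called. Arrays give no true zero, so no marker can be said to be absent. The part of changing cell types in the fall of Fmod and Ogn was not tested.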

How the data were processed

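The deposited scanner files are Agilent Feature Extraction output of 6 arrays. Per the file headers, they hold deposited intensities of each spot and its local background, besides processed intensities corrected for background and dye by the scanner software. Per the file headers, the log10 ratios are Cy5 over Cy3. The authors' deposited table of log10 values has 1 column per culture, which matched the mean of its 2 arrays after turning 1 of them round (correlations 1, 0.999999 and 0.999999), with medians of 0.00555, -0.0101 and -0.00233. Limma is named, without a version, per the submitters' processing notes. Which dye carried which RNA was read from the array names.

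Intensities were corrected with normexp (offset 50) and normalised by loess within arrays in limma 3.58.1 (R 4.3.3). Control spots (1075) and outlier-flagged spots were left out; 91 spots named as retired probes stayed in as unnamed features. Probes flagged above background for 1 RNA on at least 4 arrays were kept (43 removed), the brightest probe stood for a gene, and at least 2 cultures were required. Ratios were turned to put mesenchymal over epithelial RNA, the 2 arrays of a culture were averaged, and the mean was tested against 0 with limma over 17582 features. Intensities per RNA are the 2 channels taken apart after loess, with Aquantile scaling. The fit was tested on simulated data. On 17582 simulated features it called 94 of 100 genes changed 4-fold (2 on the log2 scale), 60 of 100 changed 2-fold and 4 of 17382 unchanged ones. The simulated noise was independent between features and cultures and held no dye effect. These rates may therefore not carry over to the real arrays. The number of arrays limits the precision.

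Probes were named by gene ID (9946), symbol (95), unique synonym (1335) or the file's name (1256), using RefSeq of GRCm38.p6, and 7739 stayed unnamed. Members, lists and tests were chosen with earlier results of these data known. All members were named; of each list up to 4 called genes with the largest change, or the 2 brightest where fewer than 2 were called, and a few others for comparison within a list, named after their values were seen. A list of 12 other family genes had 0 measured members. Promoter windows came from RefSeq, which matched Fmod, Ogn, Prelp and Bgn. Motifs were searched in Python 3.11.15.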

Additional observations from a re-analysis of the deposited data

How the results depend on the processing

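Over 20 alternatives, Ogn stayed lower and called in all of them (log2 ratio -2.91 to -1.19) and Fmod in 19 (-2.50 to -2.0). Many of these alternatives could not move either ratio, which stayed at -2.25 for Fmod and -2.05 for Ogn. They were Aquantile scaling, other filters on dim probes, the mean of probes, and saturated spots left out or outlier-flagged spots kept. Changes of the test or threshold alone also left both ratios as they were. The count is therefore not 20 separate checks of the ratios. The pairing is part of the main ratio, and with no replicate block, on unpaired channels, 244 features and 1 member (Ogn) were called, Fmod having a log2 ratio of -2.25 at an adjusted p of 0.603. A fit of 6 arrays with a replicate block kept both calls. Without 1 culture the number of changed features ranged from 818 (without culture 3) to 5154 (without culture 1), against 2088. Over these, Fmod ranged from -2.26 to -2.24, Ogn from -2.13 to -1.95, Dcn from -0.50 to -0.25 and Prelp from -0.12 to 0.068, the last without culture 2. Dcn was called without culture 1 and with median centring (-0.39). With epithelial RNA in Cy3 alone, 7076 features and 4 members were called (Dcn at -0.76, Prelp reversed to 0.40), and in Cy5 alone 5879 features, with Dcn reversed to 0.071; dye effects are part of both by construction. At adjusted p under 0.01, 933 features were called. The fit over 5 arrays was chosen after seeing the data. Of 18 called genes named in the lists, 10 stayed called on unpaired channels, and Adamts5, B4galt4, Chst11, Chst2, Col5a2, Mmp2, Pcolce2 and Sdc3 did not; of the named markers, Bnc1, Inhbb, Pdgfra and Ptch1 also lost their calls there. With epithelial RNA in Cy5 alone, Pcolce2 and Bnc1 were not called (-0.17 and -0.10).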
